A study of Drosophila melanogaster with 19 samples.

Results

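The genes described here encode the Wnt ligands and the Ryk family of Wnt receptors of Drosophila melanogaster, in neurons of the adult optic lobe, the visual part of the fly brain. The members were chosen by symbol, and their levels were read across all groups of the study. The list holds 9 genes, the ligands wg, Wnt2, Wnt4, Wnt5, Wnt6 and Wnt10 and the receptors drl, Drl-2 and dnt. Of these, 8 were matched to a row among the 17558 genes counted, and all 8 were among the 12569 genes tested. No value is given for wg, which was not analysed here. It had no row under its current FlyBase identifier, and an older identifier could not be matched. The counts hold 306 rows with no matched symbol, so wg may still have been counted. The study sequenced 17 single neuron types, a line with label in both T1 and Tm1, and sorted neurons, whose label names Elav, as the control. The types are the transmedullary Tm2, Tm3, Tm5ab, Tm5c and Tm9, the distal medulla Dm2, Dm8 and Dm12, the medulla intrinsic Mi1, the T neurons T1, T2, T3 and T5, the centrifugal C2 and C3, and the wide-field feedback neurons Lawf1 and Lawf2. Adults were 3 to 6 days old. In every group, flies of a Gal4 line were crossed to UAS-Red Stinger, per the labels' protocols. This marks nuclei with a red fluorescent protein. Labelled cells were sorted by fluorescence, so each group is what its driver labels. The series' own text instead names GFP for the T1 and Tm1 line. Each of the 19 groups has 3 numbered libraries of 1 sample. Nothing states that these came from separate flies, so p-values measure the spread between libraries, which may be technical.

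Wnt proteins are secreted, lipid-modified signals. Through Frizzled receptors and the co-receptor Arrow they stabilise Armadillo, the fly beta-catenin, and through other routes they orient cells and steer axons. Ryk receptors bind Wnts outside the cell and carry a kinase-like domain without normal kinase activity inside. In the embryonic nerve cord of the fly, axons that carry Drl are repelled by Wnt5. In the developing fly visual system, Wnt4 is known for its part in sorting axons along the dorsoventral axis.

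Positions are given on build BDGP6, from the Ensembl annotation. Several members are neighbours on chromosome 2L. Wnt4 lies at chr2L:7255419-7277171 on the minus strand. It is followed by wg at chr2L:7307159-7316265, Wnt6 at chr2L:7333714-7352542 and Wnt10 at chr2L:7363379-7377528, all on the plus strand, and the 4 genes span 122 kb. The receptors drl (chr2L:19190342-19208621, plus strand) and dnt (chr2L:19338669-19363227, minus strand) lie 130 kb apart. Wnt5 is a gene of 1 exon at chrX:18501401-18505405 on the minus strand. Wnt2 (chr2R:9494166-9503188, plus strand) and Drl-2 (chr2R:13055246-13079539, minus strand) are on chromosome 2R. Wnt10 shares 79 exon bases, 3.33% of its exon length, with the antisense gene asRNA:CR44063, and no other member shares exon bases with another gene.

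Reads in genes ranged from 0.602 M (mega) in T2 library 3 to 72.677 M in library 1 of the T1 and Tm1 line, with a median of 21.76 M. Levels are CPM, reads per M reads in genes after TMM scaling, given as mean ± SD over 3 libraries. Neuronal identity was checked with elav, whose lowest type mean was 429 CPM (C3), and nSyb, whose lowest was 1279 CPM (C2), while the glial genes repo and alrm reached at most 10.4 CPM (T2) and 13.6 CPM (T1). The list of 9 glial genes, which holds Eaat1, summed to between 81.9 CPM (Mi1) and 32310 CPM (T1), with 129.1 CPM in Tm9. T1 had 18.0 CPM of brp, a presynaptic active zone gene, and 32110 CPM of Eaat1, a glutamate transporter gene that is on both the glial list and the T1 list. The part of glial RNA in the T1 results was not tested. The T2 libraries stood apart. They held 9.444, 2.531 and 0.602 M reads, and the fold change of T2 against the other types moved with gene length. Its median log2 value was -2.06 over the 2470 genes with the shortest exons and 0.63 over the 2469 with the longest. In bulk RNA, fewer cells with a transcript and less transcript per cell cannot be told apart.

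Among the 5 ligands analysed, Wnt10 and Wnt4 were concentrated in Tm9, a transmedullary neuron of the motion pathway. Wnt5 was present in every type at similar levels, and Wnt2 and Wnt6 were close to absent. Of the 8 members tested, 6 differed among the 17 types by edgeR's quasi-likelihood F test with Benjamini-Hochberg adjustment, against 90.9% of all genes tested, so varying among types does not set the members apart.

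Wnt10 had 319.6, 299.2 and 368.8 CPM in the 3 Tm9 libraries. The next type, Dm8, an amacrine-like neuron of the distal medulla, had 7.51, 10.7 and 9.33 CPM. The Tm9 mean of 329.2 ± 35.8 CPM was 35.8 times the Dm8 mean of 9.19 ± 1.62 CPM, and neither type's libraries overlapped those of any other. Tm3 followed at 2.18 ± 1.24 CPM, and 14 of the 16 steps between neighbours in the order of types had overlapping libraries. No read of Wnt10 was counted in T1, T2, T3, T5 or Tm5c. A count of 0 allows up to 3 reads over a group, worth 0.47 CPM in T2 and 0.061 CPM or less in the other 4, and this covers counting error only. Fitted fold changes for Wnt10 depend on how such zeros are handled, so its levels are the better guide. The antisense gene asRNA:CR44063 had 18.4 ± 5.67 CPM in Tm9 and 1.02 ± 0.58 CPM in Dm8. The library kits named do not mark strand, so reads in the shared bases cannot be assigned. The antisense gene lies at chr2L:7369646-7370503, wholly within the span of Wnt10. The part of unspliced Wnt10 RNA in its count was not tested.

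Wnt4 had 158.7, 140.2 and 223.2 CPM in Tm9, all above every library of the other types. Dm2 came second with 51.5, 34.7 and 4.27 CPM, a spread of over an order of magnitude within 1 group. The Tm9 mean of 174 ± 43.6 CPM was 5.77 times the Dm2 mean of 30.2 ± 24 CPM. The median over the 17 types was 0.503 CPM. The fit sets the log level of a type against the mean log level of the remaining 16 types. On that scale Wnt4 was higher in Tm9 by a log2 difference of 8.28 ± 0.20 (SE, edgeR adjusted p = 2.18e-48). In Dm2 it was higher by 5.61 ± 0.28 (SE, edgeR adjusted p = 7.06e-29). The arithmetic mean of the remaining types was 2.55 CPM for Tm9. For Dm2 it was 11.5 CPM, with Tm9 among those types. Each SE here and below was derived from the fold change and its F statistic, and is not the spread of the libraries of 1 type. In Dm8 the libraries had 1.47, 0.141 and 6.21 CPM. The call of higher Wnt4 there rested on library 3, without which the log2 difference was 0.04 (edgeR adjusted p = 1). The bulk libraries do not show whether the same Tm9 cells carried Wnt4 and Wnt10.

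Over the 17 type means of log2(CPM + 1), Wnt4 and Wnt10 had a Pearson r of 0.78, and without Tm9 it was 0.17 over 16 types. The likeness of these neighbouring genes thus rested on Tm9. Wnt6, which lies between them, had 0.129 ± 0.158 CPM in Tm9, 10 reads over its 3 libraries.

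Wnt5, the ligand of Drl in the nerve cord, was the broad one. Its means ran between 17.4 ± 6.65 CPM in T1 and 50.9 ± 5.98 CPM in Tm5c, a ratio of 2.92, and 16 of 17 types reached 20 CPM. Every type overlapped its neighbour in the order of levels, so no step in that order separated 2 types. Without TMM factors the order had a Spearman rho of 0.86 with the order reported. T2 came second at 50.6 ± 19.3 CPM, and Wnt5 is among the longest genes, whose median log2 difference in T2 was 0.63. The SD of log2(CPM + 1) over the types was 0.41, against a median of 0.67 over all genes tested, and 1.96 for Wnt4 and 2.08 for Wnt10. Wnt5 still differed among types (edgeR F test, adjusted p = 0.000752). It was lower in T1, at 10.6, 23.9 and 17.8 CPM, with a log2 difference of -1.01 ± 0.25 (SE, edgeR adjusted p = 0.000913). That difference lay at the limit of 1 set for a call, was -0.94 under RLE scaling, and without T1 library 1 was -0.66 with an edgeR adjusted p of 0.0614.

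Wnt2 and Wnt6 had at most 22 and 15 reads in any library. No read was found in 36 of 57 libraries for Wnt2 and in 31 for Wnt6, and neither passed the F test over the types (edgeR, adjusted p = 0.513 and 0.565). The highest Wnt2 mean was 0.347 ± 0.387 CPM in Tm5ab, where 22 of the 29 reads came from library 1. It was called higher there (log2 difference 3.48, edgeR adjusted p = 0.0234), and without library 1 the adjusted p was 0.477. The highest Wnt6 mean, 0.677 ± 0.657 CPM in T2, rested on 7 reads. It too was called higher (log2 difference 5.32, edgeR adjusted p = 0.0404), and the adjusted p was 0.714 without T2 library 1 and 0.0686 without T2 library 2.

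**Figure D1:**
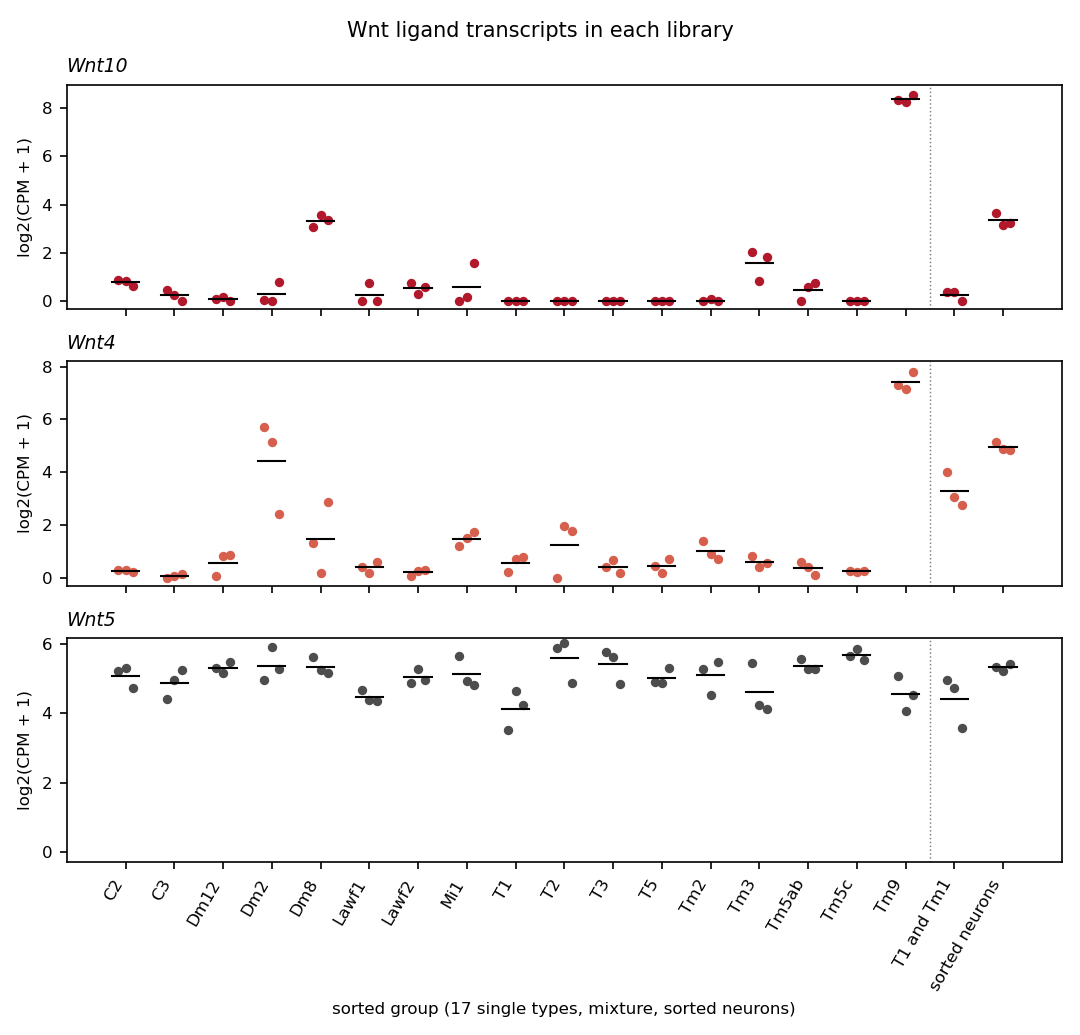
Levels of Wnt10, Wnt4 and Wnt5 on the log2(CPM + 1) scale for each library (points) of the 17 single types, the line for T1 and Tm1 and sorted neurons, with black lines at the mean of 3 log values. Wnt10 and Wnt4 stand highest in Tm9 (means 329.2 and 174 CPM), while the arithmetic type means of Wnt5 lie between 17.4 and 50.9 CPM.

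The receptors differed from each other in where they were high. drl led in most types, Drl-2 was high in a group of 5 types and under 4 CPM in 7 others, and dnt was even across types apart from Lawf1 and T1.

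drl encodes Derailed, the receptor that gives the family its fly name. It had 281.8, 318.3 and 343.6 CPM in Dm12, 243.7, 270.6 and 259.5 CPM in Mi1, and 170.6, 209.2 and 230 CPM in Tm5ab. These 3 types did not overlap each other or any lower type. Their means were 314.6 ± 31.1, 257.9 ± 13.5 and 203.3 ± 30.2 CPM. Tm9 came next at 117 ± 17 CPM and overlapped Dm2 at 107.1 ± 10 CPM. At the low end, T1 had 0.0488, 0.222 and 4.83 CPM, below all libraries of the other 16 types, and 111 of its 117 reads came from library 3. Lawf1 had 18 ± 2.28 CPM and Dm8 had 17.8 ± 4.78 CPM. Set against the mean log level of the remaining types, drl was higher in 4 types (Dm12, Mi1, Tm5ab and Tm9) and lower in 4 (Dm8, Lawf1, T1 and T3). The log2 difference in T1 was -5.38 (SE 0.398, edgeR adjusted p = 6.2e-17). The call in Tm9 sat at the limit, with a log2 difference of 1.04, and at 0.92 under RLE scaling it was no longer made. It was also lost with no filter, without T2, with DESeq2, and without Tm9 library 1 or library 2. In arithmetic terms drl had 117 CPM in Tm9, against 95.9 CPM over the remaining types.

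Drl-2, the Ryk receptor reported to oppose drl in Wnt5 signalling in the developing fly antennal lobe, had a high, a middle and a low range. In T2 it had 310.8, 137.7 and 240.6 CPM, in Dm8 195.1, 202.8 and 226.7 CPM, and in Tm5ab 148.3, 178.9 and 162.5 CPM. Dm12 had 118 ± 7.55 CPM and Dm2 90.2 ± 14.4 CPM. No library of these 5 types overlapped the sixth, Tm3, at 25.9 ± 12.7 CPM, and the ratio of Dm2 to Tm3 was 3.48. Tm3, Tm5c, T5, C3 and Lawf2 formed the middle, at 12.4 to 25.9 CPM. The lower end held Lawf1 with 0, 2.24 and 0.211 CPM, Tm9 with 1.41 ± 0.434 CPM, and T3, Tm2, Mi1, C2 and T1 at 2.38 to 3.87 CPM. The 5 high types were called higher and the 7 low types lower. The T2 level is the least certain. Drl-2 has 6.02 kb of exon, which puts it among the longest genes, whose median log2 difference in T2 was 0.63, and without TMM factors its T2 mean was 131.3 CPM in place of 229.7.

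dnt encodes Doughnut on 2, the third Ryk protein. Its means lay between 15.3 CPM (Lawf2) and 32.7 CPM (Dm2) in 15 of the 17 types. Lawf1 had 5.44, 5.45 and 6.76 CPM and T1 had 0.585, 2 and 0.087 CPM. Neither overlapped the types above it. It was lower in T1, with a log2 difference of -4.40 (SE 0.373, edgeR adjusted p = 6.85e-15), and in Lawf1, with -1.53 (SE 0.277, edgeR adjusted p = 5.22e-06). Dm2 was called higher at 1.11, and without Dm2 library 1 the value was 0.97, under the limit.

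T1 was thus low for all 3 receptors and the lowest type for Wnt5, drl and dnt, and no member reached 20 CPM there. Over type means, drl and dnt had r = 0.70 over 17 types. It was 0.29 without T1 and -0.10 without T1 and Lawf1, so their likeness rested on these 2 types.

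**Figure D2:**
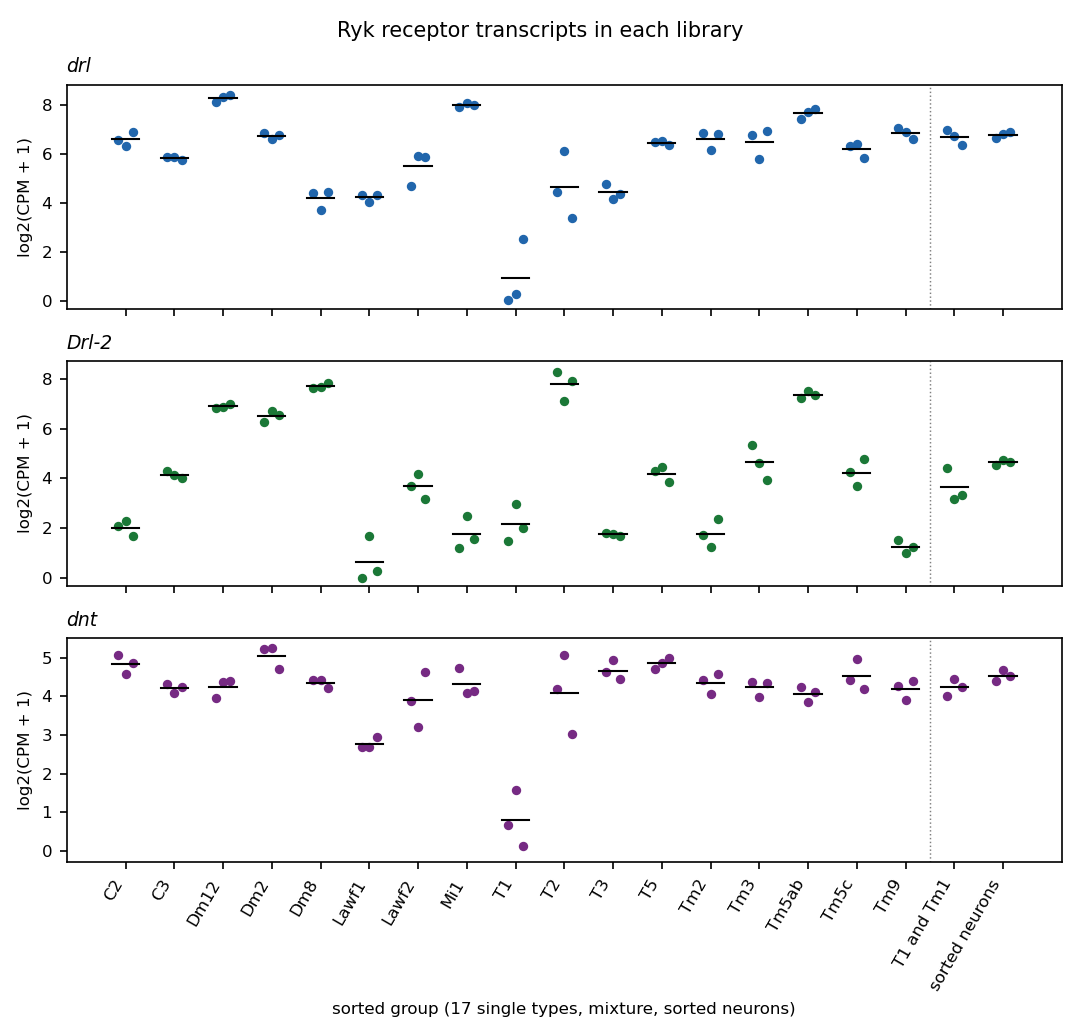
Levels of drl, Drl-2 and dnt on the log2(CPM + 1) scale for each library (points) in the 17 types, the line for T1 and Tm1 and sorted neurons, with black lines at the mean of 3 log values. drl is highest in Dm12, Mi1 and Tm5ab, Drl-2 separates 5 high types at 90.2 to 229.7 CPM from Tm3 at 25.9 CPM and below, and T1 lies lowest for drl and dnt.

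Because the receptors differ in exon length, their makeup was compared as CPM per kb of exon. drl held the largest share in 13 of the 17 types, up to 91.4% of the summed receptor level in Mi1. Drl-2 led in Dm8 with 72.5% and in T2 with 68.0%. It also led in T1, where the sum was only 1.53 CPM per kb. In T2 the median log2 difference was 0.63 over the 2469 longest genes, Drl-2 among them. It was -0.91 over the 2469 genes of the next lower length class, which holds drl and dnt. The part of this trend in the T2 shares was not tested. dnt led in T3 with 56.4%. The summed level was highest in Dm12 (127.8 CPM per kb), followed by Tm5ab (98.6) and Mi1 (90.9), and lowest in T1 and Lawf1 (8.17). In Tm9, drl held 84.6% and Drl-2 0.526%. Among ligands per kb, Tm9 had more Wnt10 than Wnt4.

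**Figure D3:**
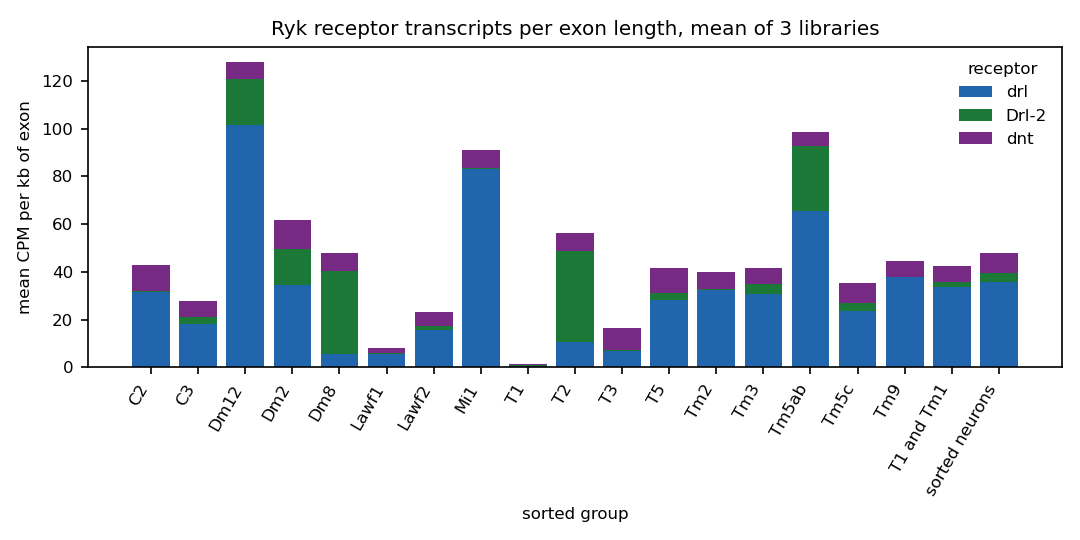
Mean CPM per kb of exon for drl, Drl-2 and dnt, stacked, in the 17 types, the line for T1 and Tm1 and sorted neurons. The stack is tallest in Dm12 (127.8) and shortest in T1 (1.53), and Drl-2 takes the largest share in Dm8 and T2. Fold changes of T2 moved with gene length, and the part of this in its shares was not tested.

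Each type was also set against the mean of the other 16 for all members, giving 136 comparisons. By edgeR, with a log2 limit of 1, members were called higher in 20, against 14.2% of all comparisons over all genes, and lower in 15, against 5.81%. For every gene the fit compares mean log levels, which can differ in sign from arithmetic means. Wnt10 was called higher in C2, Mi1, Tm3 and Dm8, and Wnt4 in Dm8, although in each case the arithmetic mean of the other 16 types, Tm9 among them, was above the type's own. Wnt10 in C2, for one, had 0.723 CPM, against 21.4 CPM over the others. Wnt10 in Mi1 had 0, 0.13 and 2.01 CPM and rested on library 3.

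Types alike in name or with a known place in the same visual pathway were set against each other in 8 pairs, and members were called in 16 of 64 comparisons, against 19.3% of all genes over the pairs. The receptors supplied 12 of these 16. Drl-2 was higher in Tm5ab, at 163.2 ± 15.3 CPM, than in Tm5c, at 18.7 ± 7.15 CPM (log2 difference 3.11, SE 0.325, edgeR adjusted p = 3.97e-11), and drl was higher too, at 203.3 against 73.8 CPM. These were 2 of 8 members, with 15.3% of all genes called in that pair. In Dm8 against Dm12, drl was lower, at 17.8 against 314.6 CPM (log2 difference -4.14, SE 0.334, edgeR adjusted p = 4.22e-15). Drl-2 was high in both, at 208.2 and 118 CPM. Wnt10 and Wnt4 were called higher in Dm8, making 3 of 8 members against 12.0% of genes, and the Wnt4 call was lost without Dm8 library 3 or Dm12 library 1. In Lawf1 against Lawf2, all 3 receptors were lower in Lawf1, with 29.9% of all genes called in that pair. drl had 18 against 48.1 CPM, dnt 5.89 against 15.3 CPM and Drl-2 0.816 against 12.4 CPM.

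Mi1 against Tm3, 2 inputs of the ON motion pathway, differed in 2 members against 8.26% of genes. drl was higher in Mi1, at 257.9 against 95.2 CPM, and Drl-2 lower, at 2.65 against 25.9 CPM. Tm2 against Tm9, 2 inputs of the OFF motion pathway, differed in the ligands Wnt4 (1.03 against 174 CPM) and Wnt10 (0.0194 against 329.2 CPM), with 14.7% of genes called. T5 against T3 differed in drl (87.5 against 21.2 CPM) and Drl-2 (17.6 against 2.38 CPM), with 21.1% of genes called. C3 against C2 differed in Drl-2 alone of the 8, at 16.8 against 3.12 CPM, with 12.0% of genes called. T2 against T3 differed in Drl-2, at 229.7 against 2.38 CPM, with 41.2% of genes called. In that pair the median log2 difference of the 2469 longest genes was 0.66, and the value for Drl-2 was 6.64. The part of gene length and depth in the Drl-2 value was not tested.

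Against sorted neurons, a mixture of many types, 4 of 8 members were lower in the average of the 17 types by edgeR (15.6% of all genes were lower), and none was higher (6.73% of all genes). The fit averages log levels over types, so its sign can differ from that of the arithmetic means. The log2 difference was -5.73 for Wnt10 and -5.26 for Wnt4. In arithmetic terms the types averaged 20.2 CPM of Wnt10, against 9.27 ± 2.02 CPM in neurons, and 12.6 CPM of Wnt4, against 30.1 ± 3.41 CPM in neurons. The neurons exceeded 16 of 17 types for Wnt10 and 15 of 17 for Wnt4. Drl-2 averaged 54 CPM over the types and 24 ± 1.44 CPM in neurons, yet its log2 difference was -0.76 (edgeR adjusted p = 0.0111). For drl it was -0.90 (edgeR adjusted p = 0.0003), with 97.2 CPM over the types and 110.5 ± 8.51 CPM in neurons. With DESeq2 the adjusted p was 0.0553 for drl and 0.0939 for Drl-2, leaving the 2 ligands.

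In the T1 and Tm1 line against T1, 4 of 8 members were higher (17.3% of genes were higher). drl had 124.7, 106.1 and 83.2 CPM in the mixed line, against 0.0488, 0.222 and 4.83 CPM in T1, a log2 difference of 5.91 ± 0.44 (SE, edgeR adjusted p = 1.38e-16). dnt averaged 18 ± 2.84 CPM in the mixed line and 0.891 ± 0.992 CPM in T1 (edgeR adjusted p = 4.91e-12). Wnt4 had 15, 7.3 and 5.82 CPM in the mixed line, against 0.146, 0.622 and 0.74 CPM in T1. Drl-2 averaged 12.6 ± 6.95 CPM in the mixed line and 3.87 ± 2.58 CPM in T1, and its call was lost without library 1 of the mixed line (edgeR adjusted p = 0.132). Genes of other types moved with this comparison. The Mi1 gene bsh had 150.9, 134.3 and 82.7 CPM in the mixed line, against 1.08 CPM in T1. Gad1, which makes GABA, had 581.3, 588.4 and 223.3 CPM in the mixed line, against 25.1 CPM in T1. Eaat1, the T1 gene, had 3093 CPM in the mixed line and 32110 CPM in T1. The part of other labelled cells in the result was not tested.

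The other genes of the Wnt pathway were taken from a list of 41, of which 39 were matched and tested. All 39 varied among the 17 types, against 90.9% of all genes. Each list was described in Tm9, where Wnt4 and Wnt10 were highest, and in T1, where drl and dnt were lowest. In Tm9, 9 of 39 were higher, against 8.62% of all genes, and 1 was lower, against 2.96%. In T1, 9 were higher, against 13.9%, and 5 were lower, against 10.2%.

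Of the Frizzled receptors and co-receptors, 4 of 8 were higher in Tm9 (fz, fz2, otk and otk2) and arr was lower. In T1, fz4, arr and otk were higher and fz and fz2 were lower. For otk the arithmetic means differ little or go the other way, at 12.6 CPM in Tm9 against 12.1 CPM over the other types, and 9.66 CPM in T1 against 12.2 CPM. fz2 had 321, 291.6 and 495.3 CPM in Tm9, its highest type, and 23.1, 17.1 and 19.8 CPM in T1, its lowest. arr, the co-receptor of the Armadillo route, had 6.45, 2.52 and 4.92 CPM in Tm9, its lowest type, and 80.3, 77.6 and 97.2 CPM in T1, its highest. fz had 81.5 ± 5.57 CPM in Tm9 and 0.948 ± 0.357 CPM in T1, its lowest type. Its highest type was Lawf1, at 216.5 ± 17.2 CPM. fz4 was highest in T1 at 72.2 ± 6.06 CPM. Tm9 and T1 thus stood at opposite ends for fz2 and arr.

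Of the secretion and diffusion genes, the heparan sulfate proteoglycan genes dally and dlp were called higher on the log scale in both types. dally had 742.9 ± 72.4 CPM in T1, its highest type, and 250.2 ± 71.4 CPM in Tm9, against 197.1 CPM over the types other than Tm9. In T1 the arithmetic means of dlp differed little, at 15 ± 8.1 CPM against 12.8 CPM over the other types. dlp had 55.9 ± 15.9 CPM in Tm9 and ranged over the types between no read in Lawf2 and 64.9 CPM in Tm5c. wls, which carries Wnts to the cell surface, was lowest in T1 at 9.49 ± 3.49 CPM and was 64.7 ± 25.1 CPM in Tm9.

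Of the cytoplasmic genes, arm, which encodes beta-catenin, had 933.2 ± 353.2 CPM in Tm9 and 876.2 ± 127.7 CPM in T1, the 2 highest types, and it was higher in both. In T1 gish was higher and Axn, a scaffold of the complex that degrades Armadillo, was lower. nkd, a Wnt feedback gene, ranged between 0.663 CPM in C3 and 48.9 CPM in Dm12 and was called in neither. No nuclear gene was called in Tm9 or T1. pan, the pathway's DNA-binding factor, ranged between 443.9 CPM in C3 and 4719 CPM in T2, and pygo between 25 CPM in T1 and 75.5 CPM in T2. The planar polarity cadherin gene stan was higher in Tm9 (214.9 ± 29.2 CPM) and lower in T1 (2.35 ± 3.63 CPM). Its highest type was Dm2, at 225.5 ± 81.4 CPM. pk was called higher on the log scale in both, at 5.67 CPM in Tm9 and 5.20 CPM in T1, although the arithmetic mean of the other types was 6.02 and 6.05 CPM. Of the kinase genes listed downstream of Ryk receptors, the Tec-family gene Btk was higher in T1 and the Src-family gene Src64B was called in neither. T2 was the highest type for 14 of the 39 genes, and its libraries are those that stood apart.

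**Figure D4:**
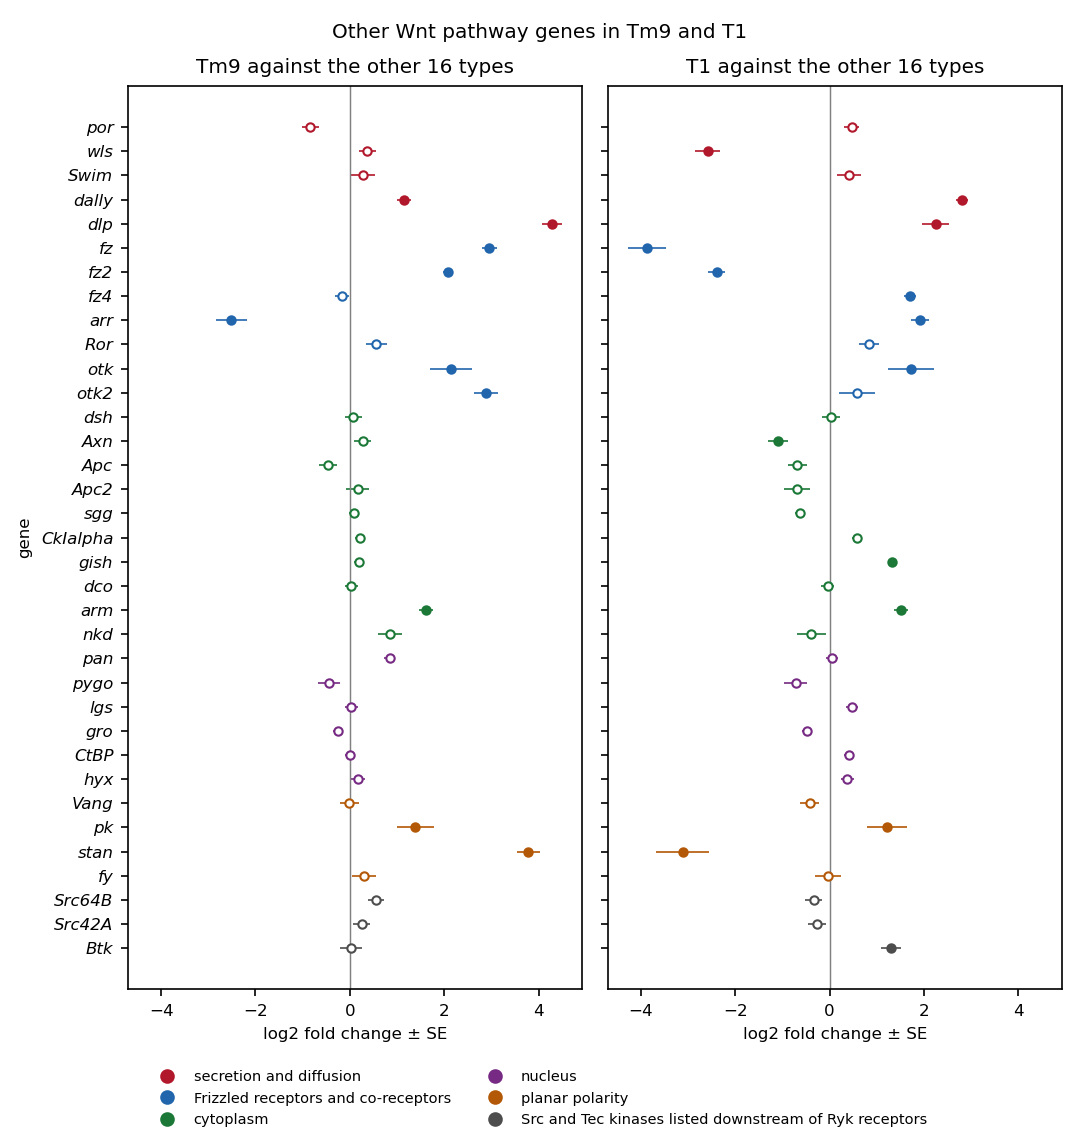
Log2 fold change (edgeR) of 35 Wnt pathway genes in Tm9 and in T1, each against the mean log level of the other 16 types. Bars are ± SE, derived from the F statistic. Filled points were called, and 4 genes under 10 CPM in every type are not drawn. fz2, fz and stan lie high in Tm9 and low in T1, and arr does the reverse.

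Genes whose pattern over the 17 type means was most like each member were found among 6757 genes that reached 20 CPM in a type. ninaC, a photoreceptor myosin gene, was nearest to Wnt10 with r = 0.95, followed by the nuclear factor gene dac with r = 0.81. All were highest in Tm9, ninaC at 222.6 ± 38.8 CPM. The list of 10 photoreceptor genes that holds ninaC summed to 225.7 CPM in Tm9, and the rhodopsin gene ninaE was at 0.0655 CPM there. For Wnt4 the nearest were Wnt10, ninaC and CG3651. Apc, which encodes a scaffold of the complex that degrades Armadillo, was nearest to Wnt5 (r = 0.83), followed by promL and CG18135. The nearest to drl were CG13760, CG32432 and CG4678, with r of 0.74, 0.72 and 0.71. For Drl-2 they were CG15894, klg and Mbs (r of 0.78, 0.78 and 0.77), and for dnt CG18135, CG32432 and Corin (r of 0.85, 0.81 and 0.80). These correlations describe 17 shared type means and carry no test. Without Tm9, the highest type of Wnt4 and Wnt10, r was not computed for ninaC, dac or CG3651.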

How the data were processed

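RNA of sorted optic lobe neurons was sequenced in 57 libraries of 19 groups. Per the labels' protocols, cDNA came from SMART-Seq v4 and libraries from Nextera XT. Trimmomatic 0.32, STAR 2.5.2, HTSeq 0.6.1 and build BDGP6 are named in the submitters' processing notes; the strand setting is not given in the sources used here. The authors deposited raw read counts per gene for 17558 genes, with 5 summary lines left out here; reads in no gene made up 40.5 to 49.2%. Symbols were matched for 17252 genes. Libraries of 1 group were compared pairwise, and a chi-square of 12.5 to 292.2 per degree of freedom, above counting noise, led to each library being used as a unit.

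Genes were filtered with filterByExpr and scaled with TMM in edgeR 4.0.16 (R 4.3.3), and 1 robust quasi-likelihood model was fitted over all groups, with the Benjamini-Hochberg threshold at 0.05 and a log2 limit of 1 for single types and pairs. The SE of an edgeR log2 difference is its absolute value divided by the square root of its F statistic. The test was checked on simulated data with the same spread for all genes. Changes were placed in Tm9 only and in genes above a low level. Recovery of changes in genes with few reads was thus not checked. Alternatives were RLE scaling, no filter, DESeq2 1.42.0, a fit that is not robust, a library-number block, leaving out T2, and leaving out each library. Tables and figures used Python 3.11.15, numpy 2.4.6, pandas 2.3.3 and matplotlib 3.10.9. Coordinates and exon lengths came from the Ensembl annotation of BDGP6. The text names all members, the 2 genes of each pathway list with the largest range of mean log2(CPM + 1), and the 3 genes nearest to each member that reaches 20 CPM. Other pathway genes were named after their values were seen. The members and lists were chosen with earlier results of these data known.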

Additional observations from a re-analysis of the deposited data

How the results depend on the processing

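The counts of members called kept within 1.5 times of those reported under RLE scaling, no filter, a fit that is not robust and leaving out T2. The exception was the comparison of the types with neurons under DESeq2, which called 2 of 8 members in place of 4. Leaving out single libraries gave 6 to 6 members varying among types, 17 to 23 higher and 14 to 17 lower type calls, 3 to 5 calls against neurons, 3 to 4 in the mixed line against T1, and 15 to 17 in the pairs. In the pathway list it gave 39 to 39 genes varying, 7 to 10 higher and 1 to 2 lower in Tm9, and 8 to 9 higher and 4 to 5 lower in T1. The log2 difference of Wnt10 in Mi1 ranged between -0.65 (edgeR adjusted p = 1, without Mi1 library 3) and 3.33. The Mi1 libraries held 0, 2 and 51 reads of Wnt10, so the value rested on library 3. Why library 3 held more was not tested. Library numbers did not pair the libraries, since deviations from the group means correlated over 0.1 in 56 of 513 pairs of equal number and in 109 of 1026 pairs of unequal number. With the library number as a replicate block the calls on members were those reported, except Wnt5 in T1 at a log2 difference of -0.99. Calls on Wnt10 in C2 (56 reads) and Wnt4 in C3 (4 reads) were lost on leaving out each 1 of their libraries. Leaving T2 out of the fit for the mixed line was chosen after seeing the data and changed no call there. Depth limits T2 most, where 0 reads allow 0.47 CPM.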
